A study of Mus musculus with 24 samples.

Results

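Day 4 embryoid bodies labelled Smad3-/- were compared with wild-type (WT) day 4 embryoid bodies by RNA sequencing. The comparison used the 2 libraries titled as Smad3 knockout and the 2 titled as WT at day 4, which are 4 of the 24 samples of the series and 4 of its 10 RNA libraries, chosen by their labels alone. All cells were mouse E14Tg2a.IV embryonic stem cells, and the embryoid bodies, aggregates in which such cells differentiate, formed after the self-renewal factor LIF was withdrawn. The labels give no added ligand or inhibitor for the RNA samples, no sex and no means of making the knockout. The other RNA groups, with 2 libraries each, were undifferentiated WT cells (day 0) and day 4 aggregates of cells labelled Smad2-/- or as a Smad2/3 double knockout.

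Both Smad3 knockout libraries carry the same line number in their names, so that the knockout cannot be told apart from its line. Whether replicate libraries were grown as separate cultures is not stated, and p-values therefore measure the spread between these libraries, which may be technical. Libraries numbered 1 and 2 belong to different series of names, and the names of the 2 libraries numbered 1 carry different digit strings that the labels do not explain. For Cer1 and Adm the differences are also given within each replicate number, and list medians are given so where their signs differ between the numbers. The 4 libraries held 35733249 to 42286369 expected counts (the estimated number of reads per gene, summed). Levels are in CPM, counts scaled to a library of 1000000, adjusted by the TMM factors of the edgeR package.

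SMAD2 and SMAD3 are the receptor-activated proteins that carry Nodal, Activin and TGF-beta signals to the nucleus, where they act with SMAD4 and with partners such as FOXH1. Nodal signalling in the early embryo and in embryoid bodies promotes the primitive streak and endoderm, maintains the epiblast, and induces its own inhibitors, the Lefty proteins and Cerberus. SMAD3 binds DNA directly, whereas the main form of SMAD2 does not.

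The targeted gene was examined first. Smad3 (ENSMUSG00000032402.12, mm10 chr9:63646767-63757994, minus strand) stood at 42 and 44.9 CPM in the WT libraries and at 49.7 and 48.7 CPM in the Smad3 knockout libraries. The knockout libraries were the higher ones, but the log2 fold change of 0.18 (SE 0.16) did not pass the test (adjusted p = 0.607). The RNA level therefore does not check the label, and Smad3 knockout below is the label's name. The length that RSEM assigned to the gene, a mean of its transcripts' lengths weighted by their abundance, did differ. It was 5090 bases in each of the other 8 libraries and 4658 and 4272 bases in the Smad3 knockout libraries. The annotation holds a transcript of 5090 bases and 4 shorter ones of 406 to 744 bases, none of which has the first exon of the long transcript (chr9:63757472-63757994). With these lengths, 9.21 to 9.93% of Smad3 transcripts in knockout library 1 and 17.5 to 18.8% in library 2 were assigned to the short forms, against 0% in the others. Of 670 genes with several transcripts, at least 100 counts in every library and a length stable within 1% over the other 8 libraries, 2 shifted by over 5% in both Smad3 knockout libraries, Smad3 and the potassium channel gene Kcnd1. Within 1 Mb of Smad3, 0 of 23 tested genes passed the test by edgeR. At an unadjusted p under 0.05 there were 3 higher and 1 lower, and DESeq2 called 1 in each direction.

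**Figure D1:**
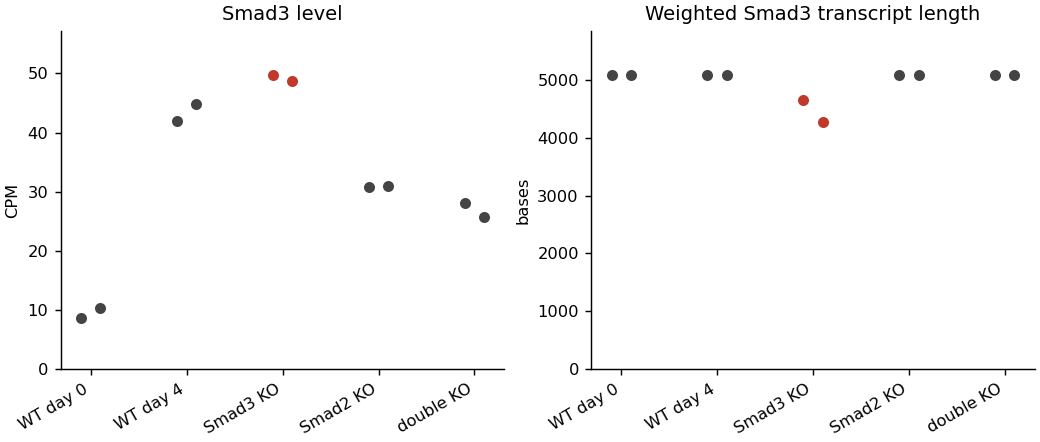
Smad3 in the 10 RNA libraries. Left, CPM; right, the abundance-weighted transcript length in bases that RSEM gave the gene; each point is 1 library. The 2 Smad3 knockout libraries (red) lie at 49.7 and 48.7 CPM, and they alone fall below a length of 5090 bases.

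Of the other pathway genes, Smad2, Smad4 and Foxh1 had log2 differences of -0.19, 0.01 and 0.08 (adjusted p = 0.641, 0.992 and 0.947). Foxh1 stood at 33 and 82.5 CPM in WT, a spread that took in both knockout libraries (51.8 and 69.8 CPM). None of the 16 tested genes for Nodal and Activin ligands and receptors, nor of the 14 for SMADs and their partners, passed the test in either direction (edgeR). At an unadjusted p under 0.05 the first list held 3 lower genes and the second 1 higher and 1 lower, and DESeq2 called 0 in both. The median of the ligand and receptor list was 0.22 within number 1 and -0.03 within number 2.

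Across all 19470 genes tested, 108 differed between the Smad3 knockout and WT at an adjusted p under 0.05 (edgeR quasi-likelihood test, Benjamini-Hochberg adjustment), which is 0.555% of those tested. Higher in the knockout were 84 (0.431%) and lower 24 (0.123%). All 108 had knockout libraries that did not overlap the WT libraries and the same sign within both replicate numbers, and 102 changed more than 2-fold. Over all genes the median log2 fold change was -0.04, the libraries of the groups did not overlap for 47.6% of genes (21.7% higher, 25.9% lower), and 2392 genes (12.3%) differed more than 2-fold. The number of genes that passed depended strongly on which libraries entered the fit. With the 4 libraries alone it was 0, although 2421 genes had an unadjusted p under 0.05 there and DESeq2 on all 10 libraries called 801. No label says that a number pairs libraries, and a fit with that further term on 4 libraries leaves little to measure the spread. When the same 4 libraries were nonetheless compared within their replicate numbers, the number that passed was 2554 (1908 higher, 646 lower). It was 3 without knockout replicate 1, 4 without knockout replicate 2, 37 without WT day 4 replicate 1 and 2709 without WT day 4 replicate 2. Leaving out a library of the other groups gave 25 (either day 0 library), 208 (either Smad2 knockout library) or 10 (either double knockout library). Every one of the 108 kept its sign in each of these fits. As none of the 108 overlapped between the groups, leaving out a library could hardly reverse a sign.

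The WT day 4 libraries stood further apart than the knockout libraries did. They differed more than 2-fold at 3490 genes, against 1157 for the Smad3 knockout libraries. Across genes, which are not independent, the log2 differences within number 1 and within number 2 correlated at 0.51. Scaling by library totals moved the median log2 fold change of all genes to 0.10 and the calls to 173 higher and 18 lower.

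**Figure D2:**
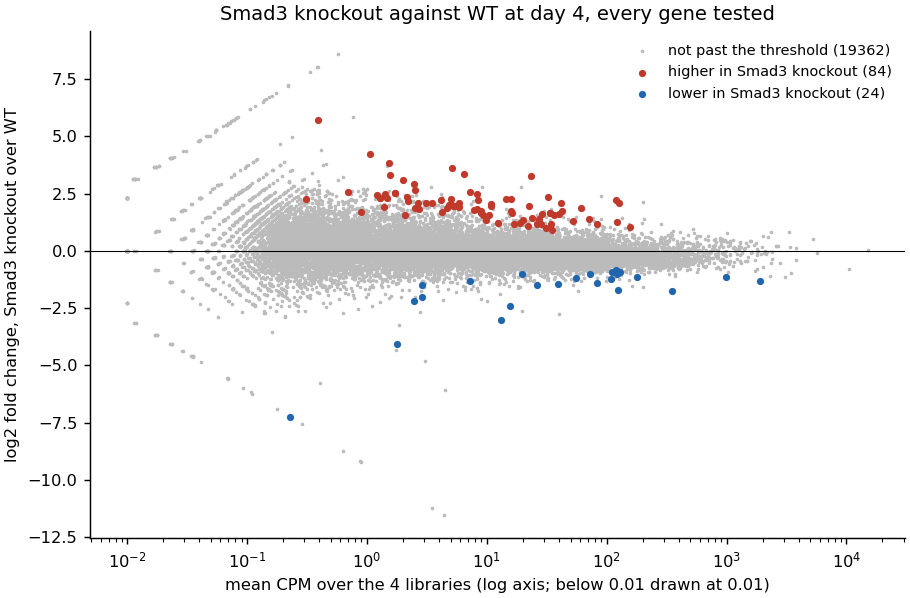
Log2 fold change of the Smad3 knockout over WT (vertical) against the mean CPM over the 4 libraries (horizontal, log axis) for the 19470 genes tested, 1 point per gene. Coloured points are the 84 genes higher (red) and 24 lower (blue) at an adjusted p under 0.05.

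**Figure D3:**
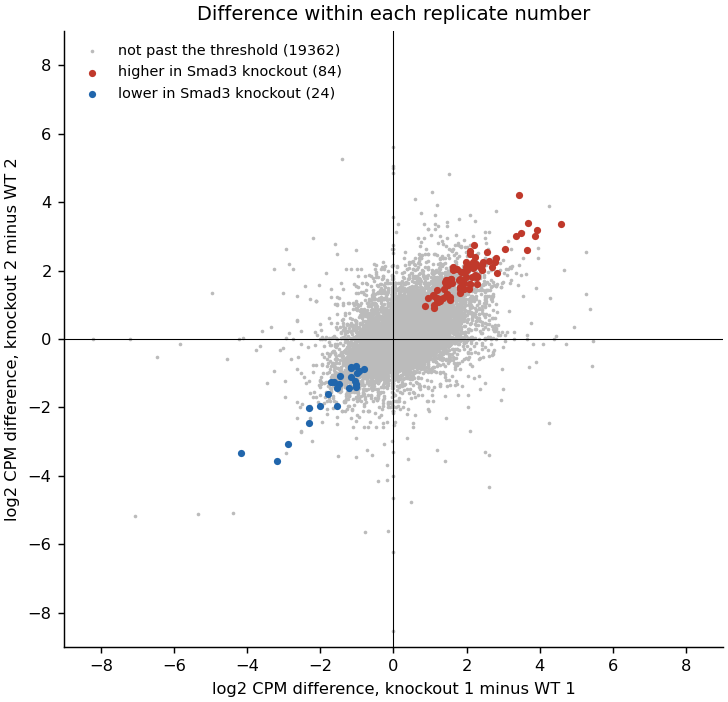
Log2 CPM difference of knockout library 1 minus WT library 1 (horizontal) against knockout library 2 minus WT library 2 (vertical), 1 point per gene. All 108 genes that passed the test lie in the quadrants where both differences have the same sign.

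A few genes induced by Nodal and Activin were called lower in the Smad3 knockout, and 20 of 22 had negative values. The median log2 fold change of the 22 was -1.09. Knockout libraries lay below both WT libraries for 17 and above both for 1, against 25.9% and 21.7% of all genes. Of the 22, 3 were called lower and 0 higher. Without WT replicate 1 the count called lower was 4, without WT replicate 2 it was 7 (with 1 called higher), and without either knockout library it was 0. Cer1 (mm10 chr4:82881751-82885148), which encodes the secreted Nodal inhibitor Cerberus, fell from 23.6 and 23.4 CPM to 3.13 and 2.74 CPM. Its log2 fold change was -3.0 (SE 0.34, adjusted p = 0.0174), with -2.9 within number 1 and -3.07 within number 2. Trh, the gene for thyrotropin-releasing hormone, fell from 427 and 649 CPM to 147 and 168 CPM (log2 fold change -1.77, SE 0.24, adjusted p = 0.0274). Ccnd1, the gene of the G1 cyclin D1, fell from 70.8 and 84.4 CPM to 34.7 and 33.6 CPM (log2 fold change -1.18, SE 0.17, adjusted p = 0.0321).

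The 250 bases before the RefSeq start site of Cer1 (GRCm38.p6 chr4:82885152-82885401, minus strand) are shown for the gene of this group that changed most. Capitals mark the letters CAGAC, the core of a SMAD-binding element, 213 bases before the start.
Cer1: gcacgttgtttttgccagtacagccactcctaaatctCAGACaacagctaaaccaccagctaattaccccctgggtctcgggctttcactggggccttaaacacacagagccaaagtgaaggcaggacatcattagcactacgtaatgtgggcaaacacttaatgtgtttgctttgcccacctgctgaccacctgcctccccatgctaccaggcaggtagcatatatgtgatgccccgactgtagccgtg
Over 32851 windows of 250 bases, CAGAC or its reverse complement GTCTG was present in 42.2%. It was present in 42.6% of the 68 windows of genes that rose and in 64.7% of the 17 windows of genes that fell; 55 of the 84 and 13 of the 24 gene symbols had a window. The FOXH1 motif AATCCACA, searched on both strands, was in 0.718% of all windows, in 2 of the 68 and in 0 of the 17. These are matches of letters only.

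Apart from Cer1, the Nodal feedback and streak genes of the panel were lower in both knockout libraries without passing the test. Lefty1 and Lefty2 encode secreted Nodal inhibitors. Lefty1 stood at 37.1 and 103 CPM in WT and 7.95 and 13 CPM in the knockout, a log2 difference of -2.74 (SE 0.52, adjusted p = 0.0569). Lefty2 stood at 80.3 and 96.9 against 24.3 and 27.6 CPM (-1.77, adjusted p = 0.221), and Nodal itself at 42.1 and 85.3 against 27.9 and 33.7 CPM (-1.05, adjusted p = 0.212). Eomes, a T-box factor of the streak, stood at 218 and 215 CPM in WT and 87.1 and 93.7 CPM in the knockout. The groups did not overlap and each pair lay close together, but the log2 difference of -1.26 (SE 0.51) did not pass (adjusted p = 0.249). The spread entering that SE is estimated over all groups, and Eomes stood at 49.3 and 10.9 CPM in the Smad2 knockout.

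The log2 differences of T, the gene for Brachyury (-0.7, SE 1.16, adjusted p = 0.81), and of Mixl1 (-0.77, SE 1.2, adjusted p = 0.792) were smaller. Both genes were lower in both knockout libraries. Their SEs also take in the Smad2 knockout libraries, which lay far apart, at 74.3 and 0.789 CPM for T and 22.6 and 0.0854 CPM for Mixl1. Of 16 streak genes 0 passed (edgeR), with a median of -0.1, which was 0.33 within number 1 and -0.28 within number 2. At an unadjusted p under 0.05 there were 3 higher and 1 lower, and DESeq2 called 1 higher. Mesp1, a gene of nascent mesoderm, was higher instead, at 1.21 and 2.88 CPM in WT and 4.71 and 9.33 CPM in the knockout. Its log2 difference was 1.78 (SE 1.17, adjusted p = 0.469), with 6.3 and 0.0854 CPM in the Smad2 knockout. Of the organizer and endoderm regulators, Foxa2 stood at 27.1 and 40.4 CPM in WT and 4.71 and 6.27 CPM in the knockout (-2.62, adjusted p = 0.102). Gsc (-1.81, adjusted p = 0.236), Sox17 (-1.24, adjusted p = 0.226) and Lhx1 (-0.49, adjusted p = 0.766) had smaller differences. The WT libraries differed widely for Gsc, at 2.61 and 14.7 CPM. Of 16 definitive endoderm genes 2 were called lower, Cer1 and Trh, and of 13 organizer genes only Cer1. Cer1 stands on each of these lists, which are therefore not independent. Fewer cells of a type and less RNA per cell cannot be told apart in such bulk samples.

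Of the pluripotency and epiblast genes, Fgf15, Dnmt3b and Nanog were called lower. Each of the 17 primed epiblast genes and each of the 13 core pluripotency genes had a negative log2 fold change (medians -0.81 and -0.65), with 2 and 1 called lower and 0 higher in either list. These counts were 1 and 0 without WT replicate 1, 6 and 6 without WT replicate 2, and 0 in both lists without either knockout library. Fgf15, an FGF ligand gene, fell from 24.1 and 27.8 CPM to 4.86 and 5.06 CPM (log2 fold change -2.39, SE 0.24, adjusted p = 0.00779). The WT and knockout pairs were each close together, and Fgf15 had the lowest adjusted p of the genes named here that fell, apart from Trpc5os. It lies 29 kb from Ccnd1 on chromosome 7. Dnmt3b, a de novo DNA methyltransferase gene, fell from 1293 and 1453 CPM to 624 and 616 CPM (-1.15, SE 0.18, adjusted p = 0.0351). Nanog, a core pluripotency factor, fell from 266 and 228 CPM to 119 and 107 CPM (-1.13, SE 0.17, adjusted p = 0.0321).

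Other epiblast and pluripotency genes had negative values without passing the test, some of them near the threshold. Etv5, Dppa2 and Foxd3 among them were named after their values were seen. Fgf5, a marker of the postimplantation epiblast, stood at 170 and 152 CPM in WT and 73.1 and 74.1 CPM in the knockout (-1.13, SE 0.2, adjusted p = 0.0504). Etv5, an ETS factor downstream of FGF, had -0.92 (adjusted p = 0.0569), Dppa2 -1.06 (adjusted p = 0.0651), Foxd3 -1.9 (adjusted p = 0.0913), Sox2 -0.76 (adjusted p = 0.138) and Otx2 -0.52 (adjusted p = 0.221). Pou5f1, the gene of OCT4, stood at 424 and 860 CPM in WT and 408 and 510 CPM in the knockout, so that the groups overlapped. Its log2 difference of -0.48 (adjusted p = 0.433) turned to 0.11 without WT replicate 2. Of 20 naive pluripotency genes 0 passed (edgeR), and their median was -0.7, with 5 positive and 15 negative. At an unadjusted p under 0.05 there were 3 higher and 8 lower, and DESeq2 called 2 higher and 5 lower.

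Some regulators of trophoblast and surface ectoderm rose in the Smad3 knockout. The trophoblast list had a median of 1.34, and 2 of its 20 genes had negative values. Knockout libraries lay above both WT libraries for 13 genes and below both for 1, against 21.7% and 25.9% of all genes. On this list 6 genes rose and 0 fell. The 6 became 3 without WT replicate 1, 11 without WT replicate 2 and 0 without either knockout library. Hand1, a basic helix-loop-helix factor of trophoblast giant cells and of mesoderm, rose from 0.617 and 1.69 CPM to 9.73 and 14 CPM (log2 fold change 3.36, SE 0.41, adjusted p = 0.0174). Dlx3, a homeobox gene of placenta and epidermis, rose from 1.1 and 1.81 to 6.04 and 7.5 CPM (2.22, SE 0.28, adjusted p = 0.0174). Wnt7b, a WNT ligand gene, rose from 1.92 and 2.4 to 7.08 and 9.5 CPM (1.94, SE 0.24, adjusted p = 0.0174).

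Gata3, a zinc-finger factor of both lineages, rose from 0.617 and 0.808 to 3.49 and 3.75 CPM (2.34, SE 0.39, adjusted p = 0.039). The X-linked homeobox genes Rhox6 (2.0, adjusted p = 0.0489) and Rhox9 (2.1, adjusted p = 0.0443), which lie 69.2 kb apart, made up the 6. Near copies within this family leave the split of reads between its genes uncertain. Rhox2a, chosen after its values were seen, also rose, with 1 and 0 counts in WT and 32 and 34 counts in the knockout (adjusted p = 0.0215). In undifferentiated WT cells Rhox2a had 28 and 29 counts. Rhox6 stood there at 9.35 and 5.71 CPM and Rhox9 at 6.81 and 4.42 CPM. Tpbpa and Prl3d1, markers of differentiated trophoblast, had 0 counts in all 4 libraries. The summed level of the trophoblast list was 922 and 784 CPM in WT and 811 and 775 CPM in the knockout, a sum that also holds Peg10 and Eomes, with log2 differences of 0.0 and -1.26. Krt7 (1.82, adjusted p = 0.0539) and Plet1 (1.0, adjusted p = 0.0881) did not pass.

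The median of 15 surface ectoderm genes was 1.3. Knockout libraries lay above both WT libraries for 11 and below both for 1, against 21.7% and 25.9% of all genes. Of the 15, 2 were called higher, Dlx3 and Gata3, which are both also among the 6 trophoblast genes. The 2 became 1 without WT replicate 1, 5 without WT replicate 2 and 0 without either knockout library. The keratin gene Krt8 stood at 67.7 and 159 CPM in WT and 251 and 341 CPM in the knockout (1.39, adjusted p = 0.125).

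Some mesoderm genes were higher too. The median of 13 mesoderm genes was 1.62. Knockout libraries lay above both WT libraries for 10 and below both for 2, against 21.7% and 25.9% of all genes. Of the 13, 2 were called higher, Foxc2 and Hand1, and Hand1 is also among the 6 trophoblast genes. The 2 became 1 without WT replicate 1, 4 without WT replicate 2 and 0 without either knockout library. Foxc2, a forkhead gene of paraxial mesoderm and vessels, rose from 1 and 8 counts to 74 and 98 counts, or 0.0229 and 0.19 CPM to 1.64 and 2.42 CPM (4.23, SE 0.74, adjusted p = 0.0478). Kdr, the VEGF receptor gene of early mesoderm, stood at 4.3 and 4.75 CPM in WT and 13.7 and 13.9 CPM in the knockout (1.61, adjusted p = 0.0932). All 10 cardiac genes tested had knockout libraries above both WT libraries, against 21.7% of all genes, with a median of 1.13. Of them 0 passed (edgeR), with 5 at an unadjusted p under 0.05 and 2 called by DESeq2. Myl4 (1.61, adjusted p = 0.062) and Myl7 (1.72, adjusted p = 0.0832) were the nearest. The HOX list gave 0 of 11 with a median of 1.45 (edgeR; 4 at an unadjusted p under 0.05, 2 by DESeq2). Markers of fibroblasts and stroma moved with these genes, with a summed level of 60.9 and 89.7 CPM in WT and 154 and 170 CPM in the knockout and 0 of 13 called (edgeR; 6 higher and 1 lower at an unadjusted p under 0.05, 5 higher by DESeq2). Their part in the mesoderm values was not tested.

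**Figure D4:**
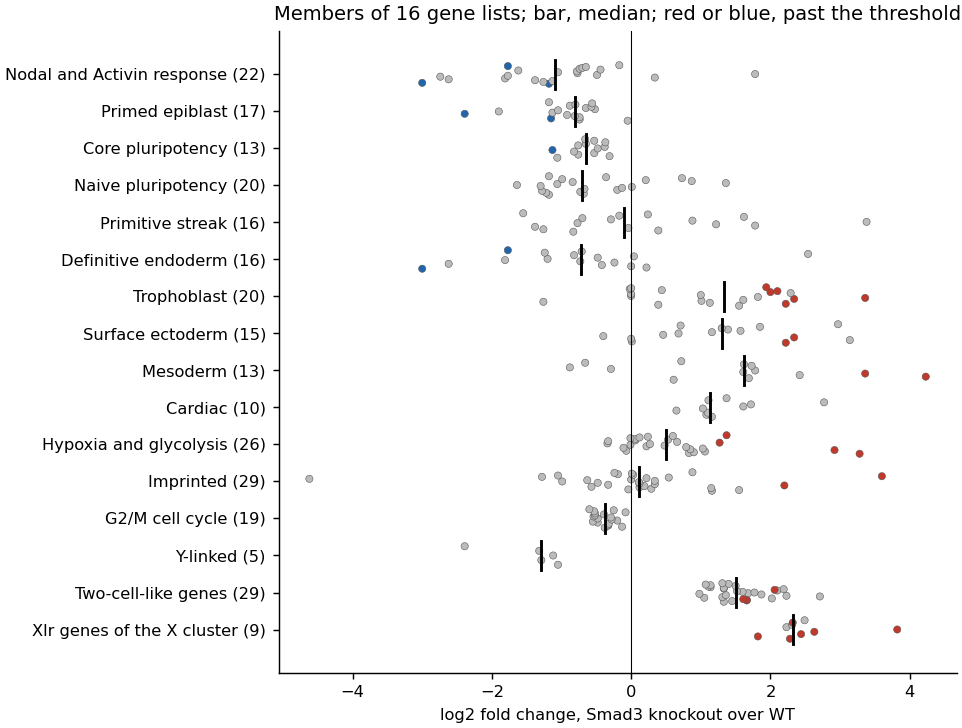
Log2 fold change of the Smad3 knockout over WT for the members of 16 gene lists (number tested in parentheses), 1 point per gene, with the median as a bar. Red and blue points passed the test; the Nodal and Activin response median is -1.09, the trophoblast median 1.34 and the Xlr median 2.32. The 2-cell-like and Xlr families were chosen after their values were seen.

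Several hypoxia-responsive genes rose. On the list of hypoxia and glycolysis genes 4 of 26 rose, against 0.431% of all genes, 0 fell and the median was 0.5. Knockout libraries lay above both WT libraries for 15 and below both for 2, against 21.7% and 25.9% of all genes. The 4 became 1 without WT replicate 1 or without either knockout library, and 11 without WT replicate 2. Adm (mm10 chr7:110627661-110629820), the gene of the vasodilator peptide adrenomedullin, rose from 3.59 and 5.18 CPM to 40.8 and 44.7 CPM. Its log2 fold change was 3.28 (SE 0.3, adjusted p = 0.00735), with 3.49 within number 1 and 3.1 within number 2. Adm passed the test in each of the 12 alternatives that kept all day 4 libraries and left out no single library. Of 50 called genes so checked, 18 did. Nanog, Dnmt3b, Gata3 and Irx2, for example, did not pass with the day 4 libraries only. With the 4 libraries alone the adjusted p of Adm was 0.21.

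Car9, a carbonic anhydrase gene, rose from 0.48 and 0.666 to 4.33 and 4.37 CPM (2.92, SE 0.37, adjusted p = 0.0175). Vegfa, the vascular growth factor gene, rose from 32.9 and 47.1 to 96.8 and 110 CPM (1.37, SE 0.22, adjusted p = 0.0351), and Ndrg1, a stress-induced gene, from 67.2 and 76.2 to 171 and 175 CPM (1.27, SE 0.19, adjusted p = 0.0321). The glucose transporter gene Slc2a3 had 0.6 (adjusted p = 0.13), and the glycolytic enzyme genes on the list, from Ldha (-0.34) to Aldoc (0.9), did not pass. Eno2, a glycolytic enzyme gene that is not on the list and was named after its values were seen, rose from 9.24 and 13.5 to 27.2 and 30 CPM (1.33, SE 0.21, adjusted p = 0.0351).

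Among regulators of sugar use chosen after their values were seen, Pfkfb3, which makes the activator of phosphofructokinase, rose from 50.3 and 45.6 to 203 and 206 CPM (2.09, SE 0.21, adjusted p = 0.00735). The glycogen genes Ppp1r3b (1.98, adjusted p = 0.0174) and Pygl (1.01, adjusted p = 0.0492) also rose. Thus 3 of 14 PFKFB and glycogen genes were called higher and 0 lower, against 0.431% and 0.123% of all genes. Knockout libraries lay above both WT libraries for 10 of the 14 and below both for 0, against 21.7% and 25.9% of all genes. Ddit3, a gene of the integrated stress response, rose from 5.95 and 9.82 to 22.6 and 27 CPM (1.65, SE 0.26, adjusted p = 0.0351), as the 1 of 18 genes called on its list, whose median was -0.21.

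The Car9 window (GRCm38.p6 chr4:43506776-43507025, plus strand) is shown because it holds, 18 bases before the RefSeq start site, the core of the hypoxia response element, ACGTG, here on the opposite strand as CACGT, in capitals.
Car9: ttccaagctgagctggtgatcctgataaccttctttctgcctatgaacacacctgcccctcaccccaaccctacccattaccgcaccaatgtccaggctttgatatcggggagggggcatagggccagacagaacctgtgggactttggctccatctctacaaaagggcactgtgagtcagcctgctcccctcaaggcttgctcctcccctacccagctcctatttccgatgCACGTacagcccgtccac
ACGTG or CACGT was in 16.6% of all 32851 windows, in 26.5% of the 68 windows of genes that rose and in 11.8% of the 17 windows of genes that fell. The Adm window (chr7:110627407-110627656) held neither.

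Further genes with large changes included growth factors, signalling genes and transcription factors. Igf2 (mm10 chr7:142650766-142666816), an imprinted fetal growth factor gene, rose from 44.1 and 42.3 CPM to 198 CPM in both knockout libraries (2.2, SE 0.22, adjusted p = 0.00735). Rasgrf1, an imprinted gene for a Ras exchange factor, rose from 0.595 and 0.975 to 9.79 and 9.33 CPM (3.6, SE 0.39, adjusted p = 0.0105). These were the 2 of 29 imprinted genes that passed, and the list's median was 0.11. C3, the central complement gene, rose from 2.22 and 2.9 to 13.8 and 14.4 CPM (2.46, SE 0.26, adjusted p = 0.00968).

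The Iroquois homeobox genes Irx2 (1.68, adjusted p = 0.0351) and Irx4 (3.33, adjusted p = 0.0321) and the small MAF gene Maff (1.19, adjusted p = 0.0339), all named after their values were seen, rose as well. The AP-1 gene Fosl2 rose from 7.57 and 13.7 to 49.1 and 59.3 CPM (2.35, SE 0.3, adjusted p = 0.0198), and Bhlhe41, a clock-related repressor gene, from 17.9 and 13.5 to 70.8 and 63.7 CPM (2.1, SE 0.32, adjusted p = 0.0321). Fstl3, whose protein binds and blocks Activin, rose from 2.22 and 3.73 to 11.9 and 15.9 CPM (2.23, SE 0.34, adjusted p = 0.0321). Pdgfb, a growth factor gene, rose by 2.27 (SE 0.4, adjusted p = 0.0492). Thbs1, a well-known TGF-beta-induced gene that was chosen here after its values were seen, was also higher in the knockout, going from 23.5 and 28.1 to 92.6 and 98.3 CPM (1.89, SE 0.23, adjusted p = 0.0174).

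Among the genes that fell, Alg13, an X-linked glycosylation gene, went from 221 and 158 to 63.4 and 52.3 CPM (-1.71, SE 0.28, adjusted p = 0.0351). Trpc5os, which lies 82.1 kb from it and was named after its values were seen, went from 4.37 and 2.42 to 0.2 and 0.197 CPM (-4.08, SE 0.39, adjusted p = 0.00735). Enpp2, the gene of the lysophosphatidic acid enzyme autotaxin, went from 66.4 and 48.5 to 21.5 and 20.2 CPM (-1.46, SE 0.21, adjusted p = 0.0321). Lama1, a laminin gene of the embryonic basement membrane, went from 127 and 176 to 62.4 and 66.4 CPM (-1.23, SE 0.18, adjusted p = 0.0321) and was the 1 of 26 extraembryonic endoderm genes called. The transporter genes Slc27a2 (-1.5, adjusted p = 0.0435) and Slc7a3 (-1.41, adjusted p = 0.0321) and the decoy receptor gene Tnfrsf22 (-1.33, adjusted p = 0.0465) also fell.

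The mitochondrial gene mt-Nd1 fell from 3220 and 2231 to 1162 and 1050 CPM (-1.3, SE 0.23, adjusted p = 0.0499). It did not pass with RLE or upper-quartile factors, with the replicate number as a block or with a length offset. All 13 mitochondrial messenger RNAs, a list chosen after its values were seen, had negative values, and 1 was called, mt-Nd1. Knockout libraries lay below both WT libraries for 7 of the 13, against 25.9% of all genes. The ribosomal RNAs mt-Rnr1 (0.68, adjusted p = 0.236) and mt-Rnr2 (0.21, adjusted p = 0.8) had positive values. The share of counts on mitochondrial genes was 3.19 and 2.15% in WT against 1.86 and 1.62% in the knockout. The share on ribosomal protein genes was 5.87 and 6.85% against 7.98 and 7.78%. The part of these library traits in other results was not tested.

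**Figure D5:**
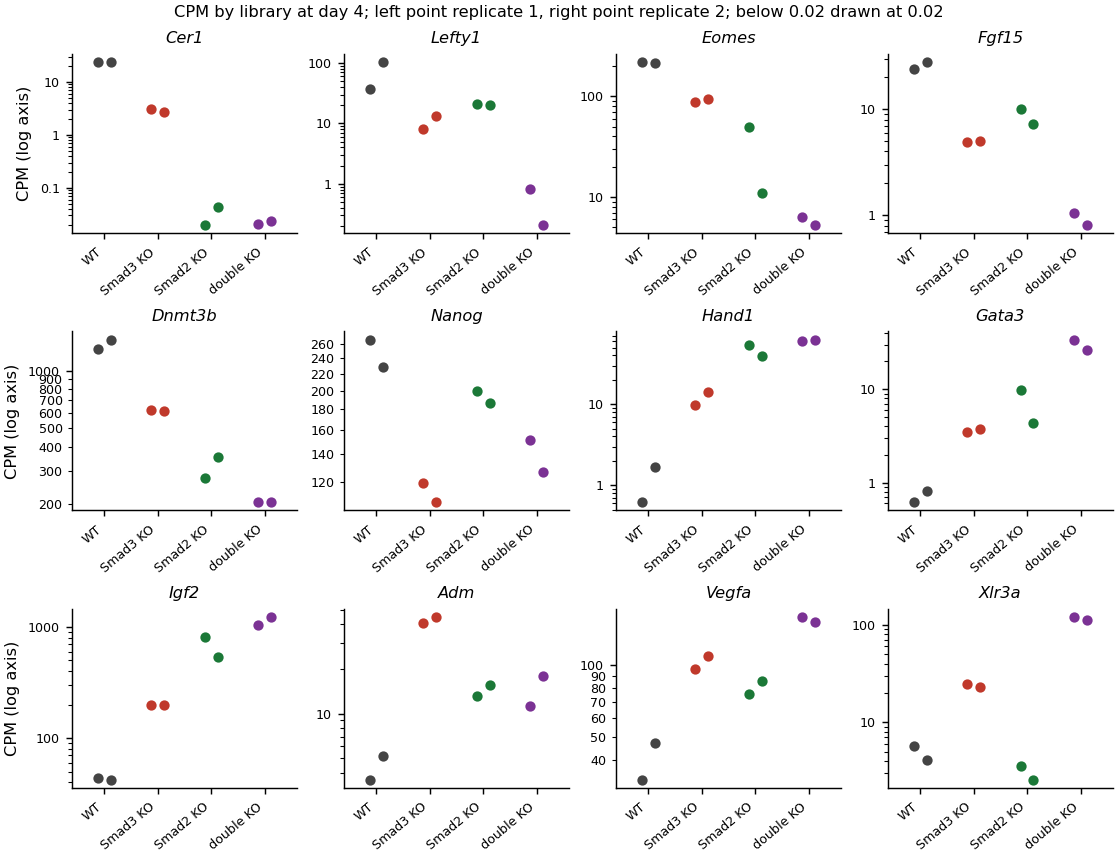
CPM (log axis) of 12 genes in the 8 day 4 libraries, 1 point per library, with replicate 1 on the left; values below 0.02 are drawn at 0.02. In every panel the 2 Smad3 knockout points (red) lie apart from the 2 WT points (dark grey), as with Igf2 at 198 CPM against 44.1 and 42.3 CPM.

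In a cluster of Xlr genes on the X chromosome 6 of 9 genes rose. These genes encode nuclear proteins first found in lymphocytes, and the family was singled out after its values were seen. All 9 genes of the cluster had knockout libraries above both WT libraries, against 21.7% of all genes, with a median of 2.32. Over all genes 0.431% were called higher. Xlr4c, Xlr5a and Xlr5c did not pass (adjusted p = 0.0955, 0.112 and 0.109). The 6 became 5 without WT replicate 1 and 1 without either knockout library. Xlr3a rose from 5.69 and 4.11 to 24.5 and 23.1 CPM (2.28, SE 0.22, adjusted p = 0.00735) and Xlr4b from 0.206 and 0.19 to 3.22 and 2.44 CPM (3.82, SE 0.32, adjusted p = 0.00735). Xlr3b (1.82, adjusted p = 0.0321), Xlr3c (2.44, adjusted p = 0.0175), Xlr4a (2.63, adjusted p = 0.0351) and Xlr5b (2.32, adjusted p = 0.0111) were the others. Xlr4b, like Adm, passed in each of the 12 alternatives that kept all day 4 libraries and left out no single library. The family's summed level was 12.8 and 9.56 CPM in WT and 55 and 50.7 CPM in the Smad3 knockout. It was 7.86 and 5.29 CPM in the Smad2 knockout, 324 and 328 CPM in the double knockout and 37.9 and 35.8 CPM in undifferentiated WT cells.

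Windows of 250 bases before the start sites of Xlr3b (GRCm38.p6 chrX:73191929-73192178, plus strand) and Xlr3c (chrX:73265391-73265640, minus strand) are given to show how alike the sequences before these genes are. Capitals mark the CCAAT box, CCAAT, which with its reverse complement ATTGG is in 33.8% of all windows.
Xlr3b: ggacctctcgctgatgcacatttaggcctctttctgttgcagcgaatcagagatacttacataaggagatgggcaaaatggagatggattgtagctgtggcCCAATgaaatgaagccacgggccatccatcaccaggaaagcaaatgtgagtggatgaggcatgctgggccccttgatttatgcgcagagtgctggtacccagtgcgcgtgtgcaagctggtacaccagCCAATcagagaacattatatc
Xlr3c: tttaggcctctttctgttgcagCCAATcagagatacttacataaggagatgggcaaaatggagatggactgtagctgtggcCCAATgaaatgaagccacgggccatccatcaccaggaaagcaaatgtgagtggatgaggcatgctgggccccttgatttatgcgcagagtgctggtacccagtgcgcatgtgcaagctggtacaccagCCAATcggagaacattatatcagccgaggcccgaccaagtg
Over the 230 columns in which the windows align, 98.3% of letters were identical, and the Xlr3a window shared 85.4% with Xlr3b. Where transcripts are near copies, the split of reads between the genes is uncertain. These windows lie before the start sites and do not measure this. Sharing of reads with copies outside the family was not tested. On the X chromosome 14 of 733 tested genes passed (1.91%), 11 higher and 3 lower, against 0.555% over all genes. The 11 include these 6 Xlr genes and 3 Rhox genes, and the median log2 fold change of the chromosome was -0.17.

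Genes of the 2-cell-like state, a rare state of stem cell cultures that resembles the early embryo, had higher values, and a few passed the test; they too were chosen after their values were seen. All 29 tested, among them the Zscan4 and Usp17l families, had knockout libraries above both WT libraries, against 21.7% of all genes. Their median was 1.5, and 4 passed, against 0.431% of all genes called higher. The 4 became 13 without WT replicate 2 and 0 without WT replicate 1 or either knockout library. Their summed level was 211 and 163 CPM in WT and 543 and 491 CPM in the knockout. Usp17le rose from 4.69 and 3.73 to 18.8 and 16.2 CPM (2.06, SE 0.3, adjusted p = 0.0321). Zscan4f stood at 32.1 and 24.8 CPM in WT and 77.3 and 63.3 CPM in the knockout (1.31, adjusted p = 0.136) and Zscan4c had 1.14 (adjusted p = 0.176). These copies share reads, so the 29 are not independent.

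Of the 108 genes, 16 lay within 250 kb of another one, in 5 pairs and the run of 6 Xlr genes. The 5 tested genes of the Y-linked list had knockout libraries below both WT libraries, against 25.9% of all genes. Their median was -1.29 and 0 passed (edgeR), with 1 lower at an unadjusted p under 0.05 and 0 called by DESeq2. Of all 12 genes tested on the Y chromosome 1 was called lower, the predicted gene Gm2098, named after its values were seen, with 17 and 22 counts in WT and 0 and 0 in the knockout (adjusted p = 0.0448). The share of all counts on the Y chromosome was 0.0231 and 0.0341% in WT and 0.0213 and 0.0398% in the knockout, so that the groups overlapped; it includes predicted genes outside the list. The list itself summed to 148 and 89.4 CPM in WT and 55.2 and 45.3 CPM in the knockout. Eif2s3y stood at 75.5 and 50.9 CPM in WT and 26.6 and 25.2 CPM in the knockout (-1.29, adjusted p = 0.39). Of 19 G2/M genes 0 passed (edgeR; 9 at an unadjusted p under 0.05, 1 by DESeq2), all 19 were negative and the median was -0.38. Of 18 cholesterol synthesis genes 0 passed (edgeR; 6 at an unadjusted p under 0.05, 3 by DESeq2), with all 18 negative and a median of -0.33.

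The Smad3 knockout was set against the other knockouts for the same genes. These comparisons share the Smad3 knockout libraries with the one above, so they are given side by side and not as further evidence. Against the Smad2 knockout 33.6% of genes passed, and against the double knockout 15.5%. Cer1 had 141 and 111 counts in the Smad3 knockout, 0 and 2 in the Smad2 knockout and 1 and 1 in the double knockout, and was higher than in either (adjusted p = 0.000869 and 0.000231). Fgf5 was 0.95 higher than in the Smad2 knockout (adjusted p = 0.00836) and 4.84 higher than in the double knockout (adjusted p = 3.76e-05), and Eomes 1.59 (adjusted p = 0.0409) and 3.95 higher (adjusted p = 0.00217).

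Hand1 was lower in the Smad3 knockout than in the Smad2 knockout (-1.98, adjusted p = 0.00499) and the double knockout (-2.38, adjusted p = 0.00306). Igf2 was lower likewise (-1.77, adjusted p = 0.00149, and -2.52, adjusted p = 0.000212). Nanog was lower than in the Smad2 knockout (-0.77, adjusted p = 0.00873), and its difference from the double knockout did not pass (-0.31, adjusted p = 0.26). Adm was higher than in either (1.57, adjusted p = 0.00409, and 1.56, adjusted p = 0.00534), as were Rasgrf1 (4.52, adjusted p = 0.000869, and 2.86, adjusted p = 0.00133), C3 (2.89, adjusted p = 0.000876, and 1.2, adjusted p = 0.0113) and Foxc2 (2.73, adjusted p = 0.0132, and 3.13, adjusted p = 0.0131).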

How the data were processed

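The authors deposited 1 RSEM gene table per RNA library, holding expected counts, TPM (length-corrected values summing to 1000000) and abundance-weighted transcript lengths in bases, per the file headers. Per the submitters' processing notes, FastQC 0.11.5, Bowtie2, STAR, RSEM, HOMER and mm10 were used; roles, annotation version and the strand of counting are not given in the sources used here. Of 53379 gene IDs, 50604 matched GENCODE M21 with version, 2670 without and 105 not at all.

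Expected counts were rounded and tested with edgeR 4.0.16 (R 4.3.3; TMM, filterByExpr, quasi-likelihood test, 19470 genes) in 1 unpaired fit over all 10 libraries, with Benjamini-Hochberg adjustment. Log2 differences within a replicate number used CPM with a prior count of 2. Alternatives used DESeq2 1.42.0, other scalings, filters and sample sets, and limma 3.58.1 on log2(TPM + 1) and log2(TPM + 0.1), a scale that understates changes of low genes. On simulated data with 200 changed genes among 18947, 21% of 2-fold and 76% of 4-fold changes were recovered, and 6 of 103 calls were not changed genes. The changed genes were drawn only from those of at least 1 CPM in WT, and the simulated libraries were drawn independently. Of the 108 called genes, 22 had a mean under 1 CPM in WT, so these rates may not hold for them.

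Members and gene lists were chosen with earlier results of these data known. Named were a fixed panel, up to 3 called members per list and direction, and the 12 largest rises and falls with at least 5 CPM in the higher group and no overlap, without predicted genes; other genes and 8 families were named after their values were seen. Some genes that the rule names are not reported here. Promoter windows came from RefSeq (GRCm38.p6). ChIP-seq samples were not used here.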

Additional observations from a re-analysis of the deposited data

How the results depend on the processing

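The number of genes that differed between the Smad3 knockout and WT depended strongly on the processing. Against 108 (84 higher, 24 lower), it was 191 (173 and 18) with library totals, 175 (154 and 21) with upper-quartile factors, 199 (155 and 44) with a stricter filter, 1096 (686 and 410) with no filter, 0 with the compared groups alone, 26 (23 and 3) with the day 4 libraries only, and 801 (513 and 288) with DESeq2. It was 54 (52 and 2) on log2(TPM + 0.1), 103 (97 and 6) on log2(TPM + 1) and 216 (168 and 48) on that scale with no filter, 140 (115 and 25) with RLE factors and 152 (119 and 33) with a length offset. Leaving out 1 library gave 3 to 2709. No label says that a number pairs libraries: deviations of same-numbered libraries correlated at 0.11 to 0.51 in all 6 pairs among WT day 0, WT day 4 and the Smad2 and Smad3 knockouts (0.51 between WT day 4 and the Smad3 knockout), but at -0.04 to -0.18 with the double knockout. With the replicate block the count was 99 (77 and 22), of which 86 were among the 108, and with the block and the compared groups alone 2554 (1908 and 646). All 108 kept their sign in every alternative that tested them, which their lack of overlap between the groups largely fixed in advance.

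Against the Smad2 knockout 6549 genes passed (3492 higher in the Smad3 knockout, 3057 lower), 3096 with a length offset, 6774 with the replicate block, and 1898 to 8569 without 1 library. That split was 5369 and 1571 with library totals, 6377 and 507 on log2(TPM + 1), 6313 and 494 on log2(TPM + 0.1), and 7491 and 467 on log2(TPM + 1) with no filter. Against the double knockout 3025 passed (1559 and 1466), 6498 with the compared groups alone, 5166 with the replicate block and the compared groups alone, 1694 (696 and 998) on log2(TPM + 0.1), 836 higher and 1218 lower on log2(TPM + 1), 3036 with the replicate block, and 1028 to 4409 without 1 library. The causes were not tested.

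Of 84 gene results 80 never changed sign. Smad2 (-0.19) became 0.02 on each TPM scale and -0.36 to 0.05 without 1 library. Smad4 (0.01) became -0.07 without WT day 4 replicate 2 and -0.02 without knockout replicate 1. Foxh1 (0.08) ranged from -0.41 to 0.88 and Pou5f1 (-0.48) from -0.88 to 0.11 without 1 library. Of 50 called genes, 18 passed in each of 12 alternatives, counting only alternatives in which the gene was tested. The 12 exclude the fits without 1 library and the fits of the compared groups alone.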
